A study of Homo sapiens with 12 samples.

Results

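Replication-dependent histone genes encode the H1 linker histone and the 4 core histones, H2A, H2B, H3 and H4, that package newly copied DNA. They were followed here in MDA-MB-468 cells, a basal-like human breast cancer line, with and without an added thyroid hormone receptor beta (TRB) and with and without its ligand, the thyroid hormone T3. All gene names that begin with HIST1H, HIST2H, HIST3H or HIST4H were taken from the count files, and 10 names with a pseudogene ending were left out, which gave 75 histone genes of 56832 names. Of these, 56 reached 10 counts in 3 or more libraries and were tested among 14663 genes. The tested genes were 5 of 6 for H1, 12 of 17 for H2A, 18 of 23 for H2B, 10 of 14 for H3 and 11 of 15 for H4. Within this class the rule used names and depth of counting only, but the class was chosen with earlier results of these data known.

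The 4 groups held 3 libraries each. TRB T3 cells carried the pCDH-TRB vector and received 10 nM T3 for 24 hours, and TRB vehicle cells carried the same vector and received NaOH. EV T3 and EV vehicle cells carried the empty vector and had the same 2 treatments. All cells were first starved of hormone for 24 hours in medium with charcoal-stripped serum, and total RNA was sequenced. Each vector stands for 1 stable pool. No label states that libraries of 1 group were grown as separate cultures, so the p-values may reflect no more than technical spread.

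Replication-dependent histone mRNAs accumulate while DNA is copied in S phase and are degraded when copying stops. Most of them lack introns and a poly(A) tail and end in a conserved stem-loop, which the stem-loop binding protein SLBP holds from processing in the nucleus to translation. Their genes sit in clusters, and the coactivator NPAT drives their transcription at nuclear histone locus bodies.

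The stem-loops are shown because they are the mark that sets this gene class apart and because the form differs between histone types. In GENCODE v29 transcripts (GRCh38, the build the authors used) the stem-loop was found in 21 of the 56 tested genes. These were 5 for H2A, 9 for H2B, 2 for H3, 5 for H4 and 0 for H1. A match was kept only with 5 annotated bases on each side, in an unbroken stretch of the genome. A gene without a match may lack these letters in its annotated transcript or hold them too near its end, and nothing more follows. Each line below gives the 16-base stem-loop in capitals with 5 bases on each side, 5′ to 3′ on the RNA strand.
HIST3H2BB: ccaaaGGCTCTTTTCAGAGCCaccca
HIST3H2A: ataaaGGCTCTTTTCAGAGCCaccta
HIST2H2BF: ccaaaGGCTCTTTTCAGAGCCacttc
HIST1H2AG: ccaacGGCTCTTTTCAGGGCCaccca
HIST1H3E: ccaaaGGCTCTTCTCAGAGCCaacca
HIST1H4E: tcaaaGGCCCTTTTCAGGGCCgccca
HIST4H4: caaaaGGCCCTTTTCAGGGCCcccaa
They lie at chr1:228458533-228458558 (+) for HIST3H2BB, chr1:228457364-228457389 (-) for HIST3H2A, chr1:149811880-149811905 (-) for HIST2H2BF, chr6:27133510-27133535 (+) for HIST1H2AG, chr6:26225591-26225616 (+) for HIST1H3E, chr6:26204996-26205021 (+) for HIST1H4E and chr12:14770719-14770744 (-) for HIST4H4. The form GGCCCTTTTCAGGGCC was found in all 5 H4 genes with a match and in no gene of another tested type. The form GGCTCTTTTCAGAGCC was found in 4 H2A, 8 H2B and 1 H3 gene.

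Promoters differed by histone type as well, and 4 are shown: HIST3H2BB and HIST4H4, the lowest called value and an uncalled one for T3 in TRB cells, HIST1H4E, the most counted H4 gene, and HIST1H2BJ, an H2B gene with the octamer. RefSeq (GRCh38.p14) promoters, 250 bases before to 50 after the start, were given for 50 of the 56 tested genes. Capitals mark 4 motifs on either strand: the octamer ATTTGCAT, a binding site of OCT1 in H2B promoters, the TATA motif TATAAA, the CCAAT box, which NF-Y binds, and GGTCCG, the core of the H4 promoter element that HINFP binds. Only the 250 bases before the start are printed.
HIST3H2BB: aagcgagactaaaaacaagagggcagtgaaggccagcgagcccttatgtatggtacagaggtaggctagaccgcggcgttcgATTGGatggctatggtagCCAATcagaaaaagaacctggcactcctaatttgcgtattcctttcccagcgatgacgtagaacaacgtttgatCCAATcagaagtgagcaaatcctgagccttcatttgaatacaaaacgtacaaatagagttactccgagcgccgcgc
HIST1H2BJ: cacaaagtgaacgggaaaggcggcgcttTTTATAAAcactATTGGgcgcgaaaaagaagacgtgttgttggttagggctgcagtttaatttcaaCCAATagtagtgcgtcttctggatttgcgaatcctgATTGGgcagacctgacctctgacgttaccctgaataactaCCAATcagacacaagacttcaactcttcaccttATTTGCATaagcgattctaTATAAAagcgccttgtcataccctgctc
HIST1H4E: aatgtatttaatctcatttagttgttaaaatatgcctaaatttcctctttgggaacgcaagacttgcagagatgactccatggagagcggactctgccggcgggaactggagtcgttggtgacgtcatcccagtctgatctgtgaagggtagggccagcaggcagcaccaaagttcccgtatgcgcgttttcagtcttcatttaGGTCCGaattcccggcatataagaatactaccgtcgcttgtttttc
HIST4H4: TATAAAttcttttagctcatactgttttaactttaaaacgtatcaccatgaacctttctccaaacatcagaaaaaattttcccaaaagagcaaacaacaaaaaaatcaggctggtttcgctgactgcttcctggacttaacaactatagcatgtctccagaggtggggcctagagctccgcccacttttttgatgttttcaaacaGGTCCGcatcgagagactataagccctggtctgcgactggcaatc
These are chr1:228457853-228458102 (+), chr6:27132796-27133045 (-), chr6:26204360-26204609 (+) and chr12:14771132-14771381 (-). HIST1H2BJ, an H2B gene with log2 fold change -0.44 for T3 in TRB cells, holds the octamer, 4 CCAAT boxes and 3 matches to the TATA motif, of which a pair overlaps on opposite strands. HIST3H2BB holds 3 CCAAT boxes and no exact octamer or TATA motif. HIST1H4E and HIST4H4 each hold 1 GGTCCG and no CCAAT box, and HIST4H4 also 1 TATA motif far from its start.

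Over the whole promoter window, the octamer was found in 8 of 11 H2A and 13 of 17 H2B promoters and in none of the 5 H1, 8 H3 and 9 H4 promoters, against 1.77% of all 35116 promoters. GGTCCG was found in 9 of 9 H4 promoters, in 1 each of the H2A, H2B and H3 promoters and in 11.3% of all. CCAAT was found in every H1, H2A, H2B and H3 promoter given, in 2 of 9 H4 promoters (HIST1H4F and HIST1H4L) and in 34.6% of all. TATAAA was found in 60.0% to 75.0% of the promoters of each type and in 11.5% of all. These matches describe letters in the reference, not occupied sites.

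Gene totals ranged from 4241863 to 11955825 counts per library, and the T3 libraries were all deeper than the vehicle libraries. THRB, which encodes the receptor the vector carries, stood at 310.2 to 343.3 CPM (counts per 1000000 gene counts, TMM-scaled) in TRB T3 and 135.5 to 143.5 CPM in TRB vehicle cells, and at 37.65 to 39.82 CPM in EV T3 and 42.5 to 44.11 CPM in EV vehicle cells, so every library went with its vector label. The epidermal growth factor receptor EGFR, a mark of this line, averaged 4861 CPM over the 12 libraries and the basal keratin KRT5 819 CPM. PTPRC and CD3E (leukocytes), VWF (endothelium) and DCN (fibroblasts) were too low to test. PECAM1 and COL1A1 reached the test, at means of 1.49 and 17.1 CPM. Of the genes listed as low in this line, PGR had no count and ESR1 reached the test, at a mean of 7.57 CPM. Of 7 markers of basal-like breast epithelium, KRT5 among them, 5 fell and 1 rose with T3 in TRB cells, where 21.9% of all tested genes fell and 22.2% rose. Histone genes took 0.531% to 0.779% of the gene counts of a library, and the tested genes held 98 to 44907 counts each over all libraries.

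Of the 19 untested histone genes, 5 had no count in any library and none reached 10 counts in more than 1 library. Many of them share nearly all of their sequence with other transcripts. Every 50-base word of HIST1H3D, HIST2H2AA3, HIST2H3A and HIST2H3C recurs in the transcript of another gene, as do nearly all of those of HIST1H2AD, HIST2H2AA4, HIST2H4A and HIST2H4B. Whether a copy or an overlapping gene holds the shared words was not tested. Reads from such words cannot be given to 1 gene, so a low count there says nothing about expression. Among the tested genes, HIST1H4K, HIST1H2AJ, HIST1H4J, HIST2H3D, HIST1H2BK and HIST1H2AI share 100%, 83.7%, 81.2%, 80.4%, 74.1% and 62.3% of their words with other transcripts, and their values are uncertain. Of the 75 genes, 5 are annotated as pseudogenes although their names passed the rule. They are HIST2H2BA, HIST2H2BB, HIST2H2BC, HIST2H2BD and HIST3H2BA, all named as H2B. Of these HIST2H2BC alone was tested, with 98 counts in all. The strand setting of the authors' counting is not given in the sources, so genes that overlap another on the opposite strand are uncertain too.

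T3 lowered histone mRNA across all 5 types in TRB cells. Summed over all 75 genes, histone counts were 5793, 5707 and 5316 CPM in the 3 TRB T3 libraries, against 7747, 7549 and 7069 CPM in the 3 TRB vehicle libraries. The groups did not overlap, and their ratio of means was 0.752. By type the ratio was 0.722 for H2B, 0.724 for H2A, 0.762 for H1, 0.764 for H3 and 0.814 for H4. Fewer cells in S phase and less histone RNA per cell cannot be told apart in such bulk samples.

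**Figure D1:**
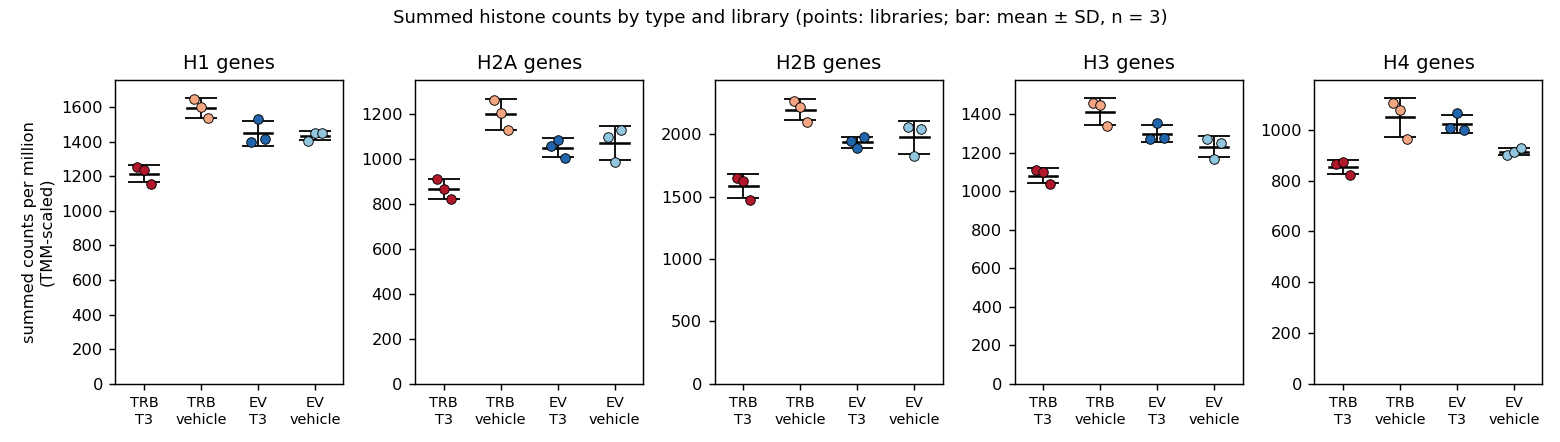
Summed histone CPM (TMM-scaled, vertical axes from 0) of the H1, H2A, H2B, H3 and H4 genes in each library, in the order TRB T3, TRB vehicle, EV T3 and EV vehicle; points are libraries and bars are mean ± SD (n = 3). In every type the 3 TRB T3 libraries lie below all other libraries, and the sum of H4 counts in EV cells is higher with T3 than with vehicle, at 1024 ± 36.4 and 915 ± 12.8 CPM.

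Gene by gene, 48 of the 56 tested genes fell with T3 in TRB cells and 0 rose (quasi-likelihood test of edgeR, p adjusted over all genes by Benjamini-Hochberg, below 0.05), where 21.9% of all tested genes fell and 22.2% rose. At an unadjusted p below 0.05, 0 rose in edgeR, and DESeq2 also called 0 higher. The median log2 fold change over the 56 genes was -0.41, against 0.00 over all genes tested (-0.0006 before rounding), and 54 of 56 values were negative. Calls covered 5 of 5 H1, 12 of 12 H2A, 16 of 18 H2B, 10 of 10 H3 and 5 of 11 H4 genes. The medians were -0.39 for H1, -0.54 for H2A, -0.44 for H2B, -0.37 for H3 and -0.21 for H4. Leaving out the deposited small structured and mitochondrial RNAs left 48 calls, and thinning every library to 4241863 counts left 46.

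The lowest values belonged to a pair of genes that share 1 promoter on chromosome 1. HIST3H2BB (chr1:228458107-228460470, + strand) encodes an H2B and HIST3H2A (chr1:228456979-228457873, - strand) an H2A, and their starts lie 234 bases apart on opposite strands, so that the promoter printed above covers nearly all of the stretch between them. HIST3H2BB had 16.4, 17.7 and 13.6 CPM in the TRB T3 libraries, against 34.5, 35.8 and 35.9 CPM in the TRB vehicle libraries. Its log2 fold change was -1.15 ± 0.08 (SE), a fold of 0.449 (edgeR adjusted p = 1.73e-19), and the groups did not overlap. HIST3H2A had 15.1, 13.0 and 14.7 CPM in the TRB T3 libraries, against 31.0, 27.2 and 26.5 CPM in the TRB vehicle libraries. Its log2 fold change was -0.98 ± 0.09 (edgeR adjusted p = 8.85e-15), again with no overlap.

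Other core histone genes followed at smaller sizes. HIST2H2BF, an H2B gene of the chromosome 1 HIST2 cluster, had 42.0, 44.2 and 41.7 CPM in TRB T3 cells, against 70.8, 67.4 and 68.9 CPM in TRB vehicle cells, a log2 fold change of -0.69 ± 0.06 (edgeR adjusted p = 1.20e-15). The groups did not overlap. HIST2H2BE, another H2B gene of that cluster, changed by -0.59 ± 0.05 (edgeR adjusted p = 2.14e-15) and HIST1H2BL, an H2B gene of the main cluster on chromosome 6, by -0.59 ± 0.06 (edgeR adjusted p = 6.03e-14). Both hold the common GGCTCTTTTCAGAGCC stem-loop. HIST1H2AE, an H2A gene, changed by -0.55 ± 0.05 (edgeR adjusted p = 6.94e-16). HIST1H3B, the most counted H3 gene, had 244.6, 236.2 and 224.9 CPM in TRB T3 cells, against 328.2, 329.5 and 301.1 CPM in TRB vehicle cells, a log2 fold change of -0.44 ± 0.04 (edgeR adjusted p = 1.53e-15).

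Among the linker histone genes, which encode the H1 that binds DNA between nucleosomes, HIST1H1B changed most. It had 335.0, 328.9 and 314.1 CPM in TRB T3 cells, against 514.9, 505.6 and 466.1 CPM in TRB vehicle cells, and its log2 fold change was -0.60 ± 0.04 (edgeR adjusted p = 8.62e-17). Its groups did not overlap. HIST1H1E had the smallest H1 change, -0.17 ± 0.04 (edgeR adjusted p = 1.17e-04). The most counted H2A gene, HIST1H2AC, changed by -0.25 ± 0.05 (edgeR adjusted p = 4.12e-05), and the most counted H2B gene, HIST1H2BH, by -0.41 ± 0.06 (edgeR adjusted p = 2.79e-05).

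The H4 genes spread most by call. HIST1H4L and HIST1H4C fell, by 0.62 and 0.52 on the log2 scale, and HIST1H4D, HIST1H4E and HIST1H4H also fell. HIST1H4E, the most counted H4 gene, had 253.7, 260.8 and 234.5 CPM in TRB T3 cells, against 322.9, 297.2 and 272.2 CPM in TRB vehicle cells, a log2 fold change of -0.25 ± 0.04 (edgeR adjusted p = 2.27e-06) without overlap. HIST4H4 (chr12:14767999-14771131), the only one of the 75 genes on chromosome 12, had 27.7, 29.6 and 29.1 CPM in TRB T3 cells, against 29.7, 25.4 and 29.5 CPM in TRB vehicle cells. Those groups overlapped, with a log2 fold change of 0.04 ± 0.08 (edgeR adjusted p = 0.745). HIST1H4A and HIST1H4B had values of -0.15 ± 0.07 and -0.13 ± 0.05 (edgeR adjusted p = 0.0699 and 0.0620), and HIST1H4F, HIST1H4J and HIST1H4K, with 206 to 417 counts in all, were not called either. Outside H4 the genes not called were HIST1H2BE, at -0.04 ± 0.11, and HIST2H2BC, at -0.36 ± 0.42.

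**Figure D2:**
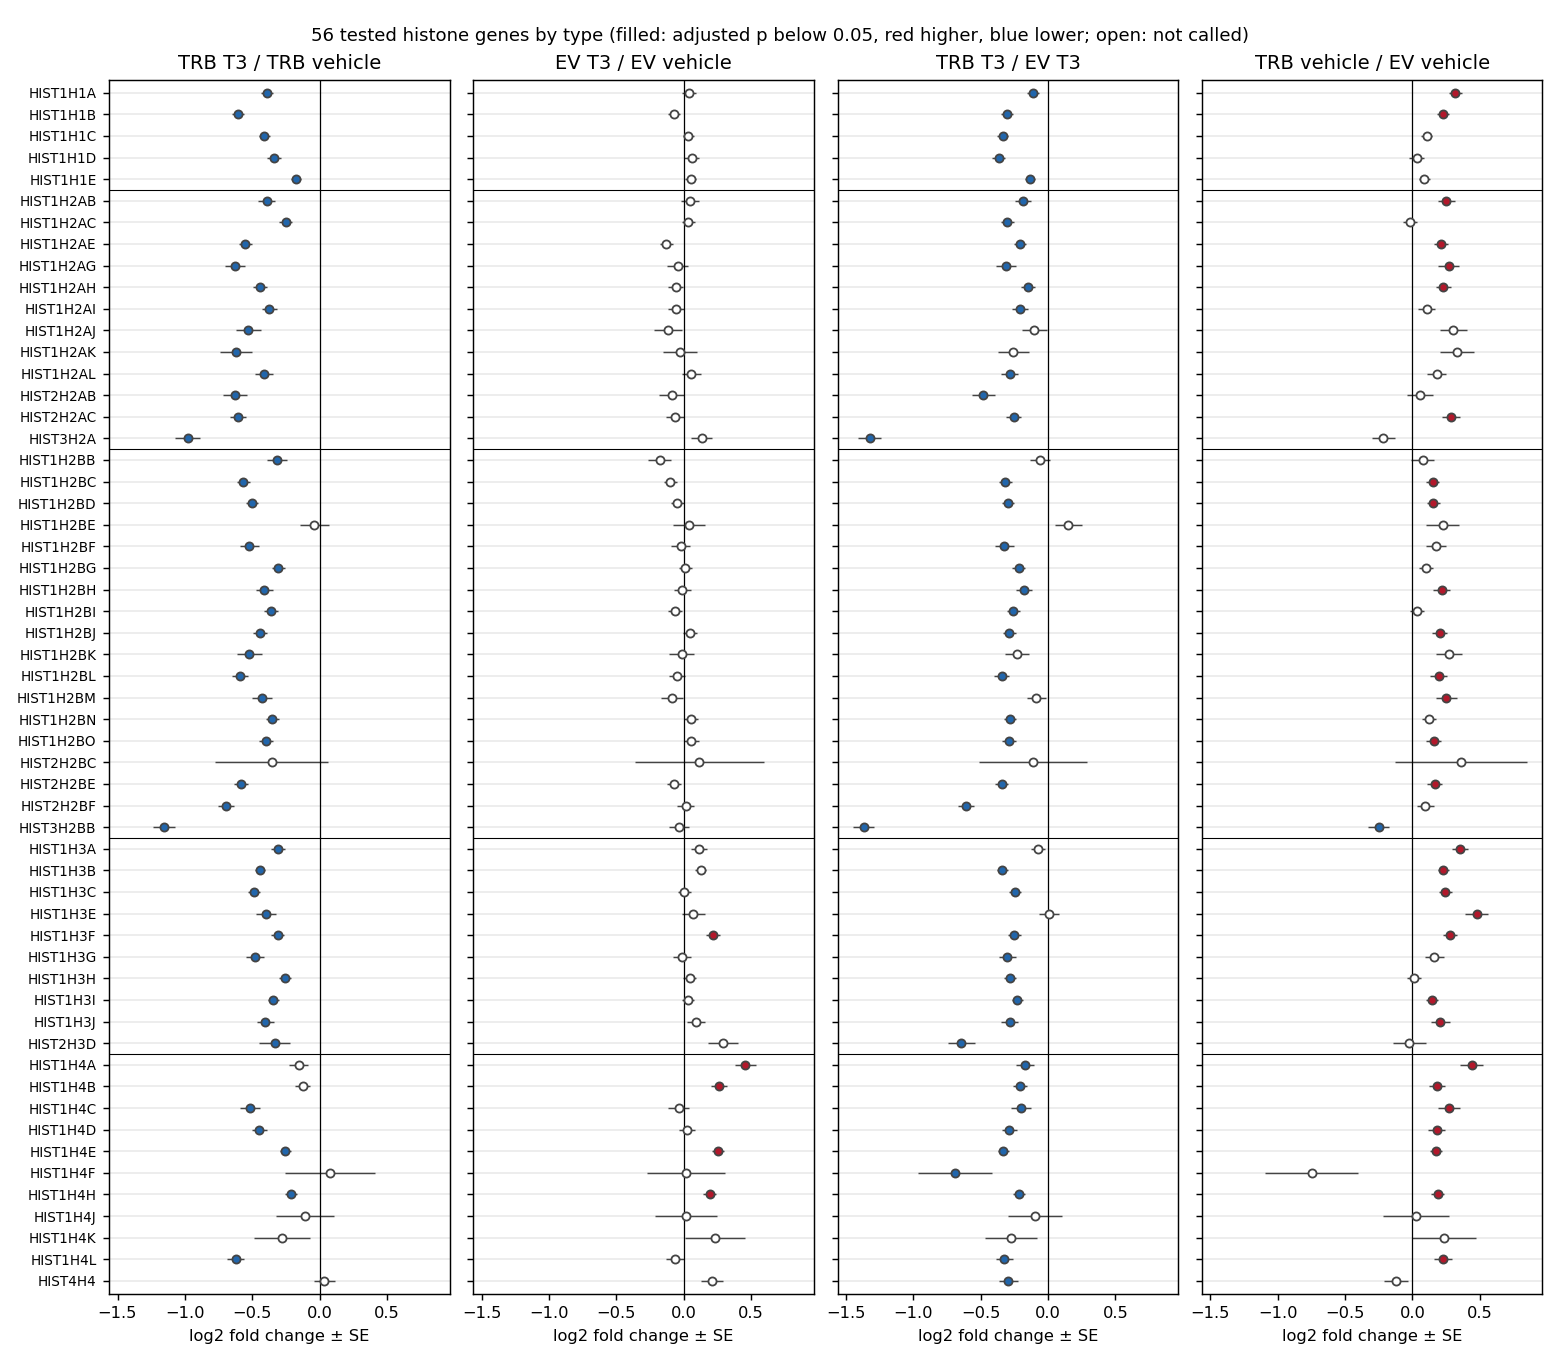
Log2 fold change ± SE (horizontal, 1 scale for all panels) of the 56 tested histone genes, grouped by type from H1 at the top to H4 at the bottom, for TRB T3 over TRB vehicle, EV T3 over EV vehicle, TRB T3 over EV T3 and TRB vehicle over EV vehicle; filled points have an edgeR adjusted p below 0.05. In the first panel 48 points are filled and lower, in the second 5 are filled and higher, in the third 45 are filled and lower, and in the fourth 29 are filled and higher and 1 is filled and lower.

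Both parts of the main cluster on chromosome 6 had similar medians. The telomeric part of the HIST1 cluster had a median of -0.37 with 24 of 28 genes lower, and the centromeric part a median of -0.43 with 17 of 19 lower. Among all tested genes 21.9% were lower. The HIST2 genes had a median of -0.60 with 5 of 6 lower, and the 2 tested HIST3 genes a median of -1.07. Of the 11 H2A and H2B pairs whose starts lie head to head within 1000 bases, 8 had both genes tested. Both genes of all 8 pairs had a negative value with T3 in TRB cells, as did 54 of all 56 tested histone genes. The genes of a pair differed by 0.02 (HIST2H2AC and HIST2H2BE) to 0.31 (HIST1H2AC and HIST1H2BC) on the log2 scale.

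In EV cells, which lack the added receptor, T3 left the sum of histone counts near that of vehicle. It was 6680, 6925 and 6675 CPM in the EV T3 libraries, against 6736, 6350 and 6805 CPM in the EV vehicle libraries, and the groups overlapped. Of the 56 genes 5 rose and 0 fell (edgeR adjusted p below 0.05), where 2.78% of all tested genes rose and 1.68% fell. At an unadjusted p below 0.05, 8 were higher and 3 lower, and DESeq2 called 5 higher and 0 lower. The median was 0.02, against 0.00 over all genes (-0.0005 before rounding). By type the medians were 0.04 for H1, -0.05 for H2A, -0.02 for H2B, 0.08 for H3 and 0.19 for H4.

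Of the 5 genes that rose in EV cells 4 encode H4. HIST1H4A had 44.6, 51.3 and 43.1 CPM in EV T3 cells, against 31.7, 35.6 and 33.4 CPM in EV vehicle cells, a log2 fold change of 0.46 ± 0.08 (edgeR adjusted p = 3.78e-05). HIST1H4E had 304.8, 322.5 and 315.8 CPM in EV T3 cells, against 266.7, 261.3 and 263.2 CPM in EV vehicle cells, a log2 fold change of 0.25 ± 0.04 (edgeR adjusted p = 7.34e-05). Neither pair of groups overlapped. HIST1H4B rose by 0.26 ± 0.06 (edgeR adjusted p = 0.00457), HIST1H4H by 0.19 ± 0.05 (edgeR adjusted p = 0.00501) and HIST1H3F, an H3 gene, by 0.22 ± 0.05 (edgeR adjusted p = 0.00457). The count of 5 was 3 without EV vehicle replicate 3 and 2 after thinning to equal depth. Without EV T3 replicate 1 or EV vehicle replicate 2, 1 and 2 genes were called lower.

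**Figure D3:**
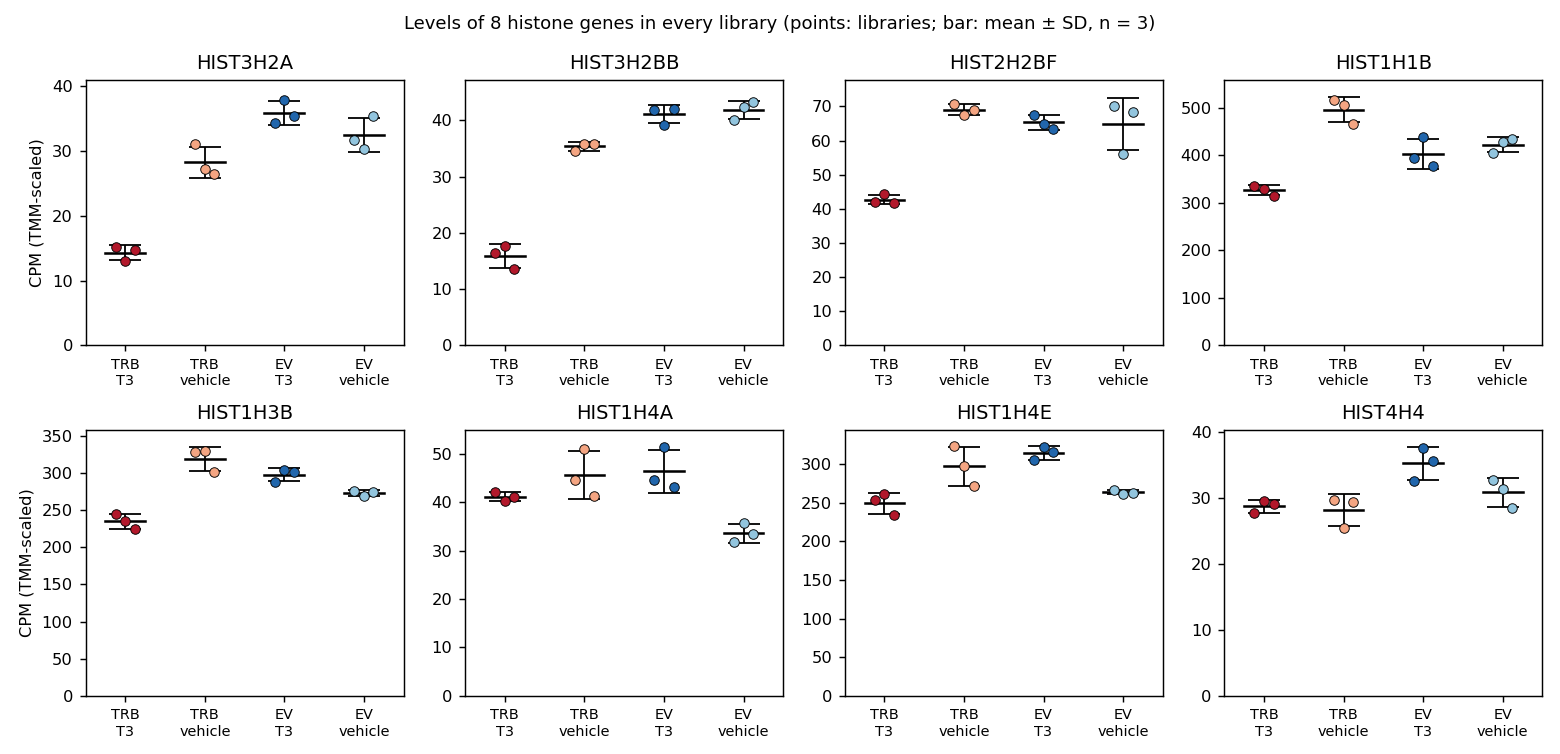
CPM (TMM-scaled, vertical axes from 0) of 8 histone genes in every library, in the order TRB T3, TRB vehicle, EV T3 and EV vehicle; points are libraries and bars are mean ± SD (n = 3). HIST3H2A and HIST3H2BB lie lowest in TRB T3 cells, at 14.3 ± 1.13 and 15.9 ± 2.12 CPM, while HIST1H4A is lowest in EV vehicle cells, at 33.6 ± 1.96 CPM.

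H4 genes held 15.0% to 15.5% of histone counts in TRB T3 libraries, against 13.6% to 14.3% in TRB vehicle libraries. They held 15.0% to 15.4% in EV T3 libraries, against 13.4% to 14.4% in EV vehicle libraries. In both pools every T3 library lay above every vehicle library. H2B shares were 28.3% ± 0.429 in TRB T3 and 29.5% ± 0.251 in TRB vehicle cells, and 28.6% ± 1.23 in EV T3 and 29.8% ± 0.913 in EV vehicle cells (SD, n = 3 each), with overlap between the EV groups. H1 shares lay between 20.9% and 22.9% in all libraries.

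The difference of the T3 effect between the pools, tested as the interaction in the same fit, was negative for 49 of 56 genes and positive for 0 (edgeR adjusted p below 0.05), where 11.5% of all tested genes were called negative and 12.1% positive. At an unadjusted p below 0.05, 0 were positive, and DESeq2 called 0 positive. The median difference was -0.47, and it was close in each type, from -0.43 for H1 to -0.48 for H3, with H4 at -0.47. HIST3H2BB differed by -1.12 ± 0.11 (edgeR adjusted p = 4.09e-13) and HIST3H2A by -1.11 ± 0.12 (edgeR adjusted p = 1.06e-11). HIST1H4A, not called in TRB cells and higher in EV cells, differed by -0.61 ± 0.11 (edgeR adjusted p = 4.23e-06). HIST4H4 had a difference of -0.17 ± 0.11 (edgeR adjusted p = 0.294).

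Between the pools with T3, 45 of 56 histone genes were lower in TRB than in EV cells and 0 higher (edgeR adjusted p below 0.05), where 19.6% of all tested genes were lower and 20.8% higher. At an unadjusted p below 0.05, 0 were higher, and DESeq2 called 0 higher. The median was -0.28, and the sums were 5605 ± 254 CPM in TRB T3 and 6760 ± 143 CPM in EV T3 cells (SD, n = 3 each). HIST3H2BB had 16.4, 17.7 and 13.6 CPM in TRB T3 cells, against 41.9, 39.2 and 42.1 CPM in EV T3 cells, a log2 fold change of -1.37 ± 0.08 (edgeR adjusted p = 5.33e-25). HIST3H2A stood at -1.33 ± 0.08 (edgeR adjusted p = 6.54e-23). Both genes' groups were apart by more than their spread. HIST2H2BF followed at -0.61 ± 0.06 (edgeR adjusted p = 3.07e-14) and HIST1H3B at -0.34 ± 0.04 (edgeR adjusted p = 1.88e-11), and the H1 genes HIST1H1C and HIST1H1D at -0.34 ± 0.04 and -0.37 ± 0.05 (edgeR adjusted p = 7.07e-11 and 3.37e-09). The most counted H4 gene, HIST1H4E, stood at -0.33 ± 0.04 (edgeR adjusted p = 2.11e-09). This comparison shares its TRB T3 libraries with the comparison of T3 and vehicle in TRB cells.

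With vehicle the direction was the other way for most genes, and the differences were smaller. Histone sums were 7455 ± 349 CPM in TRB vehicle and 6630 ± 245 CPM in EV vehicle cells (SD, n = 3 each), without overlap. Of the 56 genes 29 were higher and 1 lower in TRB cells (edgeR adjusted p below 0.05), where 7.8% of all tested genes were higher and 7.26% lower, and the median was 0.18. The H3 gene HIST1H3E had 40.6, 37.7 and 35.6 CPM in TRB vehicle cells, against 27.4, 26.7 and 27.7 CPM in EV vehicle cells, a log2 fold change of 0.48 ± 0.08 (edgeR adjusted p = 1.44e-05). HIST1H3A, HIST1H1A and HIST1H3F had log2 fold changes of 0.35 ± 0.06, 0.32 ± 0.05 and 0.28 ± 0.05 (edgeR adjusted p = 6.38e-06, 2.17e-06 and 6.22e-05). HIST1H4A stood at 0.44 ± 0.08 (edgeR adjusted p = 4.86e-05) and HIST1H3C, HIST1H1B and HIST1H3B at 0.24, 0.23 and 0.23. HIST3H2BB was the gene called lower, with 34.5, 35.8 and 35.9 CPM in TRB vehicle cells, against 40.1, 42.3 and 43.2 CPM in EV vehicle cells, a log2 fold change of -0.25 ± 0.08 (edgeR adjusted p = 0.0208). Its partner HIST3H2A was not called, at -0.21 ± 0.09 (edgeR adjusted p = 0.0931). The 29 higher genes became 15 without TRB vehicle replicate 1 or replicate 2, 18 without EV vehicle replicate 2, 18 with DESeq2 and 13 after thinning, and the call on HIST3H2BB was lost without TRB vehicle replicate 1, without EV vehicle replicate 2 or 3, with DESeq2 and after thinning.

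Histone genes that are transcribed outside S phase and carry poly(A) tails had a median nearer 0. Of 11 tested replication-independent histone genes, T3 in TRB cells raised 2 (18.2%) and lowered 3 (27.3%), shares near the 22.2% and 21.9% of all tested genes, with a median of -0.07. H2AFX, the H2A variant phosphorylated at DNA breaks, whose mRNA can end in either way, fell to 84.7, 82.0 and 83.7 CPM in TRB T3 cells, against 122.2, 113.4 and 116.5 CPM in TRB vehicle cells (log2 fold change -0.49 ± 0.05, edgeR adjusted p = 4.38e-14). The groups were well apart. H1FX, a linker variant, fell by 0.30 and H3F3B, which encodes the replacement histone H3, by 0.09 on the log2 scale. H3F3A, which encodes the same protein, rose by 0.29 and H2AFV by 0.12. H3F3A was much less counted, at a mean of 15.9 CPM over all libraries against 488 CPM for H3F3B. It had 17.0, 15.7 and 20.5 CPM in TRB T3 cells, against 13.3, 15.7 and 14.3 CPM in TRB vehicle cells, so its groups nearly touched. H2AFZ, H2AFY and H1F0 had values of -0.06, -0.07 and -0.03 and were not called. In EV cells the 11 values lay between -0.05 and 0.15.

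Of 22 tested genes for transcription and processing of histone mRNA, T3 in TRB cells raised 3 (13.6%) and lowered 6 (27.3%), against 22.2% and 21.9% of all tested genes, with a median of -0.05. SLBP, the stem-loop binding protein, had 64.9, 59.3 and 60.7 CPM in TRB T3 cells, against 83.6, 79.1 and 69.3 CPM in TRB vehicle cells, a log2 fold change of -0.33 ± 0.06 (edgeR adjusted p = 1.25e-06) without overlap. Its difference between pools was -0.42 ± 0.08 (edgeR adjusted p = 4.23e-05). SYMPK, a scaffold of the cleavage complex, and UPF1, a helicase that acts in histone mRNA decay, each rose by 0.55 (edgeR adjusted p = 1.11e-18 and 2.78e-20). NPAT and CASP8AP2, both of the histone locus body, had values of -0.10 ± 0.05 and -0.07 ± 0.05 and were not called (edgeR adjusted p = 0.127 and 0.224). Of 19 tested histone chaperones, 7 fell (36.8%) and 1 rose (5.26%), against 21.9% and 22.2% of all tested genes. NAP1L1, an H2A and H2B chaperone, and HJURP, the chaperone of centromeric histone H3, fell by 0.35 and 0.36, and CABIN1, a subunit of the HIRA complex, rose by 0.28.

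With T3 in TRB cells, most cell cycle genes moved in the same direction as the histone genes. T3 in TRB cells lowered 24 and raised 2 of 32 S phase genes, with a median of -0.20, and lowered 23 and raised 1 of 25 G2/M genes, with a median of -0.28. Over all tested genes 21.9% fell and 22.2% rose. TYMS, thymidylate synthase, and MCM4, a subunit of the replicative helicase, fell by 0.56 and 0.36, and GINS3, another helicase subunit, rose by 0.69. The mitotic genes UBE2C, CDC20 and TOP2A fell by 0.53, 0.45 and 0.38. In EV cells edgeR called 1 of 32 S phase genes, higher, and 3 of 25 G2/M genes, lower, where 2.78% of all tested genes rose and 1.68% fell. Between the pools with vehicle, cell cycle genes differed less than histone genes. In TRB cells 4 of 32 S phase genes (12.5%) were higher and 0 lower, with a median of 0.07. Of 25 G2/M genes 1 (4.0%) was higher and 0 lower, with a median of 0.02. Over all tested genes 7.8% were higher and 7.26% lower, and of 56 histone genes 29 were higher and 1 lower, with a median of 0.18. The part of cell cycle changes in the histone result was not tested.

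**Figure D4:**
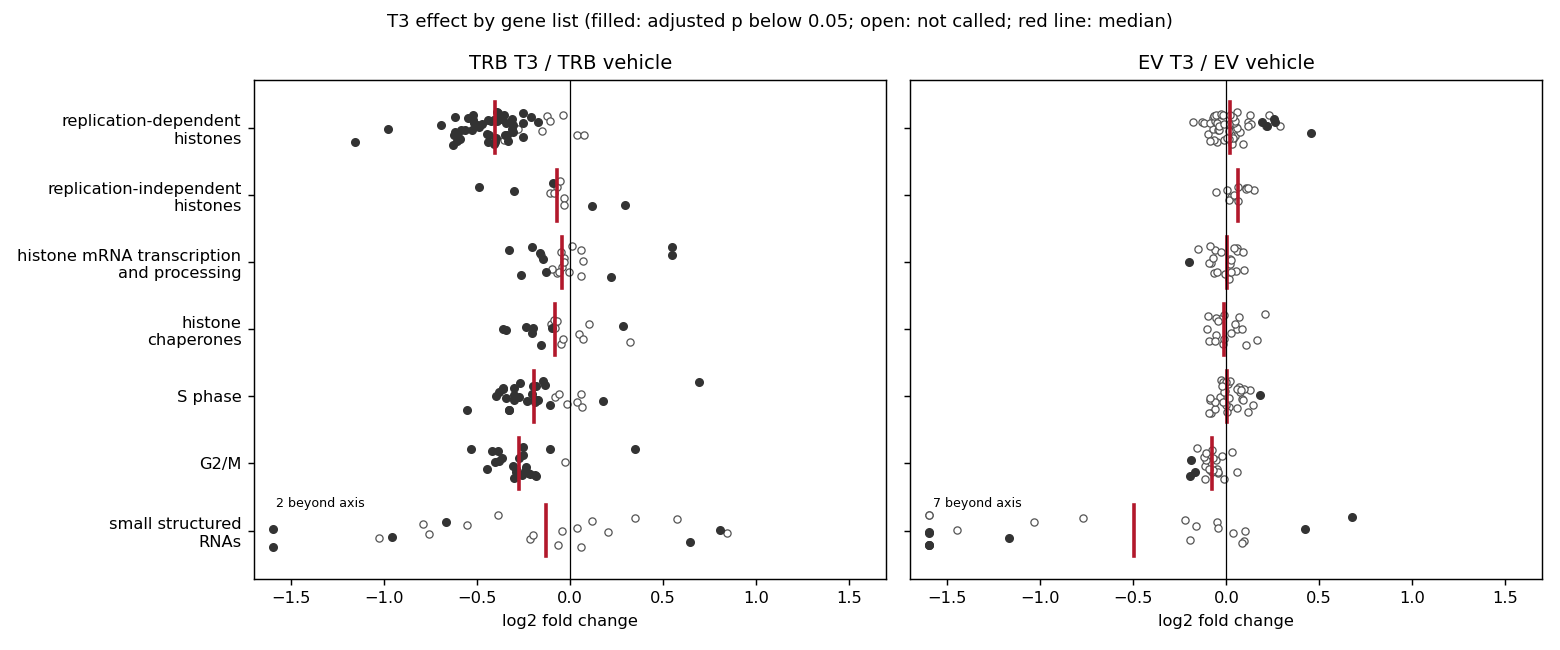
Log2 fold change for T3 over vehicle (horizontal, values beyond 1.6 drawn at the edge and counted in words) of replication-dependent histone genes and 6 other gene lists, in TRB cells on the left and EV cells on the right; each point is a gene, filled where the edgeR adjusted p is below 0.05, and red lines are medians. In TRB cells the medians are -0.41 for replication-dependent histones, -0.07 for replication-independent histones, -0.20 for S phase and -0.28 for G2/M genes.

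Because most of these mRNAs lack a poly(A) tail, a list of small structured and mitochondrial ribosomal RNAs was read beside them. The sources do not give the method of ribosomal RNA removal. MT-RNR1 and MT-RNR2 were among the 22 tested RNAs of this list. Of the 22, T3 raised 2 and lowered 4 in TRB cells, with a median of -0.13. In EV cells T3 raised 2 and lowered 5, with a median of -0.50. Over all tested genes 22.2% rose and 21.9% fell in TRB cells, and 2.78% rose and 1.68% fell in EV cells. The 4 lowered in TRB cells were MT-RNR1, MT-RNR2, the U5 spliceosomal RNA RNU5B-1 at -0.96 ± 0.38 and the Y RNA RNY1 at -0.67 ± 0.20 (edgeR adjusted p = 0.0353 and 0.0216). All 4 were also lower in EV cells, with RNU5B-1 at -2.23 ± 0.41 and RNY1 at -1.17 ± 0.23, and RNU6ATAC was called lower in EV cells at -2.02 ± 0.51. RNU5B-1 and RNU6ATAC are thinly covered, with 160 and 106 counts over all 12 libraries. RMRP and RPPH1, structured RNAs of enzymes that cut RNA, had log2 fold changes of -0.06 ± 0.11 and -0.05 ± 0.19 for T3 in TRB cells and were not called; RMRP averaged 4128 CPM in TRB T3 and 4315 CPM in TRB vehicle cells. The small Cajal body RNAs SCARNA13 and SCARNA2 rose in TRB cells, by 0.81 and 0.65, and in EV cells, by 0.42 and 0.67. The mitochondrial ribosomal RNA MT-RNR1 was lower with T3 in both pools, by -4.61 in TRB and -5.66 in EV cells on the log2 scale. The part of library handling in the histone result was not tested. The 7 histone genes listed as also giving polyadenylated transcripts, HIST1H1C, HIST1H2AC, HIST1H2BC, HIST1H2BD, HIST1H2BJ, HIST1H2BK and HIST2H2BE, all fell with T3 in TRB cells, with a median of -0.50, and in EV cells their values lay between -0.10 and 0.05.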

How the data were processed

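RNA sequencing of 12 libraries was used. The library kit was NEBNext Ultra II RNA, per the labels' protocols. The submitters' processing notes name build hg38 and the tools HTSeq 0.10, STAR 2.7, CASAVA 1.7 and DESeq2. Raw counts per gene name were deposited by the authors; their normalized table was not used here. Lines that name no gene (31.87% to 39.24% of each file's total) were left out. No 2 libraries held identical values.

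Tests used edgeR 4.0.16 in R 4.3.3 with limma 3.58.1: genes with at least 10 counts in 3 libraries, TMM, 1 robust quasi-likelihood fit of 4 group means over all 12 libraries (8 residual degrees of freedom), and Benjamini-Hochberg adjustment over 14663 genes with a threshold of 0.05. CPM are scaled by TMM factors. The fit was tested on simulated counts. Counts limit the precision of low genes, and reads carry no molecular identifiers, so they may repeat molecules.

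The histone genes and all 10 gene lists were chosen with earlier results of these data known. Named genes were, per comparison, all called histone genes when 10 or fewer or the 8 of smallest p in each direction, the most counted gene of each type, any gene called against the median, and a preset set of companion genes with the 3 of smallest p per list. RNU5B-1, RNY1, RNU6ATAC, MT-RNR2, HIST1H1E, HIST1H1D, the H4 genes that were not called, HIST1H4C, HIST1H4L, HIST1H2BE and HIST2H2BC were named after their values were seen. All 75 names matched GENCODE v29 (GRCh38) and RefSeq. DESeq2 1.42.0, other normalizations, filters, thinning, a replicate block and leaving out each library were the alternatives; leaving out structured and mitochondrial RNAs and offsets for GC content (86.3% of tested genes had a value) were added after seeing the data.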

Additional observations from a re-analysis of the deposited data

Results flagged for a closer look

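The response to T3 differed between the TRB and EV pools for 49 of the 56 tested histone genes, each with a more negative value in TRB cells (edgeR's quasi-likelihood test of the interaction, Benjamini-Hochberg adjusted p below 0.05). In the same test 11.5% of all tested genes were called negative and 12.1% positive. Among the named genes the difference in log2 fold change was -1.12 for HIST3H2BB, -1.11 for HIST3H2A, -0.71 for HIST2H2BF, -0.57 for HIST1H3B, -0.53 for HIST1H1B, -0.53 for HIST1H3F, -0.51 for HIST1H4E, -0.44 for HIST1H1C, -0.40 for HIST1H2BH and -0.29 for HIST1H2AC. HIST1H4E, HIST1H4H and HIST1H3F were called lower with T3 in TRB cells and higher with T3 in EV cells.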

How the results depend on the processing

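Of 1209 recomputed values of named genes, 1173 kept their side of the threshold, 27 lost the call and 9 gained it. No value called in the main fit changed direction, and none gained a call in the opposite direction. Direction was not compared for values that stayed uncalled. For T3 in TRB cells 46 to 50 histone genes were lower under the other settings and 47 to 50 with 1 library left out; for the difference between pools these ranges were 40 to 49 and 47 to 49, and for TRB against EV with T3 35 to 47 and 39 to 47. The count higher for T3 in EV cells was 2 after thinning and ranged from 3 to 7 with 1 library left out, and the count lower ranged from 0 to 2. The count higher for TRB against EV with vehicle was 13 after thinning and 18 with DESeq2, and ranged from 15 to 30 with 1 library left out; the count lower was 0 after thinning, 0 with DESeq2 and 0 to 1 with 1 library left out. The cause was not tested. Thinning leaves 1 histone gene fewer to test.

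The labels give no pairing beyond the replicate number. Deviations from the group means correlated at -0.117 to 0.084 over 18 pairs of same-numbered libraries. Over 36 pairs of other-numbered libraries they correlated at -0.06 to 0.126. These ranges overlap, but they cannot show that no pairing existed, because the deviations also carry counting noise. With the replicate block, 49 genes were lower for T3 in TRB cells, 5 higher for T3 in EV cells, 44 lower for TRB against EV with T3, 29 higher and 1 lower for TRB against EV with vehicle, and 49 negative for the difference. Other scalings put the median log2 value of all genes between -0.0402 and 0.0146. Group sums of histone counts moved by less than 1 SD with RLE factors or none.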
